A study of Homo sapiens with 16 samples.

Results

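The synaptic vesicle and neuronal identity genes described here are 49 human genes chosen by symbol, most of which encode proteins of the neurotransmitter vesicle, its release machinery, the secretory granule or the neuronal cytoskeleton. A row of the table of estimated counts was found for 48 of them, among 34228 genes, and UCHL1 was not analysed here. RNA-Seq of polyA RNA came from the human melanoma lines 451Lu-R and 1205Lu-R, 2 cell lines selected for resistance to BRAF inhibitors (BRAFi) by months of culture in rising doses of PLX4032 (vemurafenib), so that each line is 1 resistant population. Per the study, 451Lu-R is MITFhi/AXLlo and 1205Lu-R is MITFlo/AXLhi. Cells received 2.5 μM corin or its vehicle DMSO for 24 h, with 2 libraries in each of the 4 groups. Corin joins, in 1 molecule, a benzamide-type inhibitor of the histone deacetylases HDAC1 and HDAC2 and an inhibitor of the histone demethylase LSD1 (KDM1A), the enzymes of the CoREST corepressor complex. Libraries with PLX4032, alone or with corin, were not analysed here.

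In a nerve terminal, vesicles are filled with transmitter, tethered by synapsins, docked at the active zone by RIM, UNC13, bassoon and piccolo proteins, and fused by the SNARE proteins syntaxin-1, SNAP-25 and synaptobrevin when a synaptotagmin binds calcium. Peptide hormones leave the cell from dense-core granules, which contain granins. In most cells outside the nervous system many of these genes are kept silent by REST, a zinc finger protein that binds the RE1 element and recruits CoREST. Melanocytes come from the neural crest, as do many peripheral neurons, and share some of these genes.

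The libraries held between 9516687 and 11797788 estimated counts, and counts of both replicates of a group spread by 1.34 to 1.40 times Poisson variance (chi-square per degree of freedom). Neither the labels nor the study's methods say whether replicates were separate cultures, so p-values here measure only the spread between these samples. In 451Lu-R all 8 melanocyte lineage markers had counts in every library, with a summed level of 11702 to 13727 CPM (estimated counts scaled to a common library total). In 1205Lu-R the same list summed to 8.29 to 26.5 CPM, and SOX10 and TYR had no counts in any library. The 25 pan-neuronal markers summed to 408 to 420 CPM in 451Lu-R with DMSO and to 1583 to 1595 CPM with corin. In 1205Lu-R they summed to 1732 to 1744 CPM with DMSO and 2812 to 2833 CPM with corin. MAP1B, TUBB3, DPYSL3 and NCAM1 weighed heavily in the 1205Lu-R sums. They had 15223, 8601, 6443 and 5840 counts over both DMSO libraries, and 13951, 18386, 4943 and 10597 with corin. Of the list, 18 of the 19 genes tested in 451Lu-R rose with corin, as did 13 of 15 for 1205Lu-R. Over all genes tested, 41.3% rose in 451Lu-R and 40.4% in 1205Lu-R. DCX and RBFOX3, which mark young and mature neurons, rose in 451Lu-R by 4.89-fold (edgeR adjusted p = 0.000641) and 6.40-fold (edgeR adjusted p = 0.000167), and both were at or below 1.53 CPM on average in all 4 groups. In bulk RNA a change in the share of cells that express a gene and a change in the RNA per cell cannot be told apart.

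More of the genes were detected with corin. In 451Lu-R, 23 and 18 of the 48 genes reached 1 CPM in the DMSO libraries and 39 in each corin library. In 1205Lu-R, 21 and 22 did so with DMSO against 34 and 36 after corin. Over all genes in the table, the share at 1 CPM or more also rose, by less. It went from 38.3% in both DMSO libraries to 41.7% and 41.5% in 451Lu-R, and from 37.6% and 37.7% to 42.1% and 42.0% in 1205Lu-R. Of the 48 genes, those at 0 counts went from 18 and 16 to 2 and 3 in 451Lu-R, and from 13 and 17 to 6 and 5 in 1205Lu-R. The share of all genes at 0 was not counted. Summed over the 48 genes, the level was 1315 and 1287 CPM with DMSO against 2664 and 2622 CPM after corin in 451Lu-R, and 1245 and 1266 CPM against 3434 and 3383 CPM in 1205Lu-R. VGF and L1CAM weighed heavily in these sums. Without them the level was 303 and 290 CPM against 913 and 934 CPM in 451Lu-R, and 718 and 709 CPM against 1270 and 1291 CPM in 1205Lu-R. In 1205Lu-R these last sums still held STMN3, at 434 and 436 CPM with DMSO and 310 and 311 CPM after corin.

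**Figure D1:**
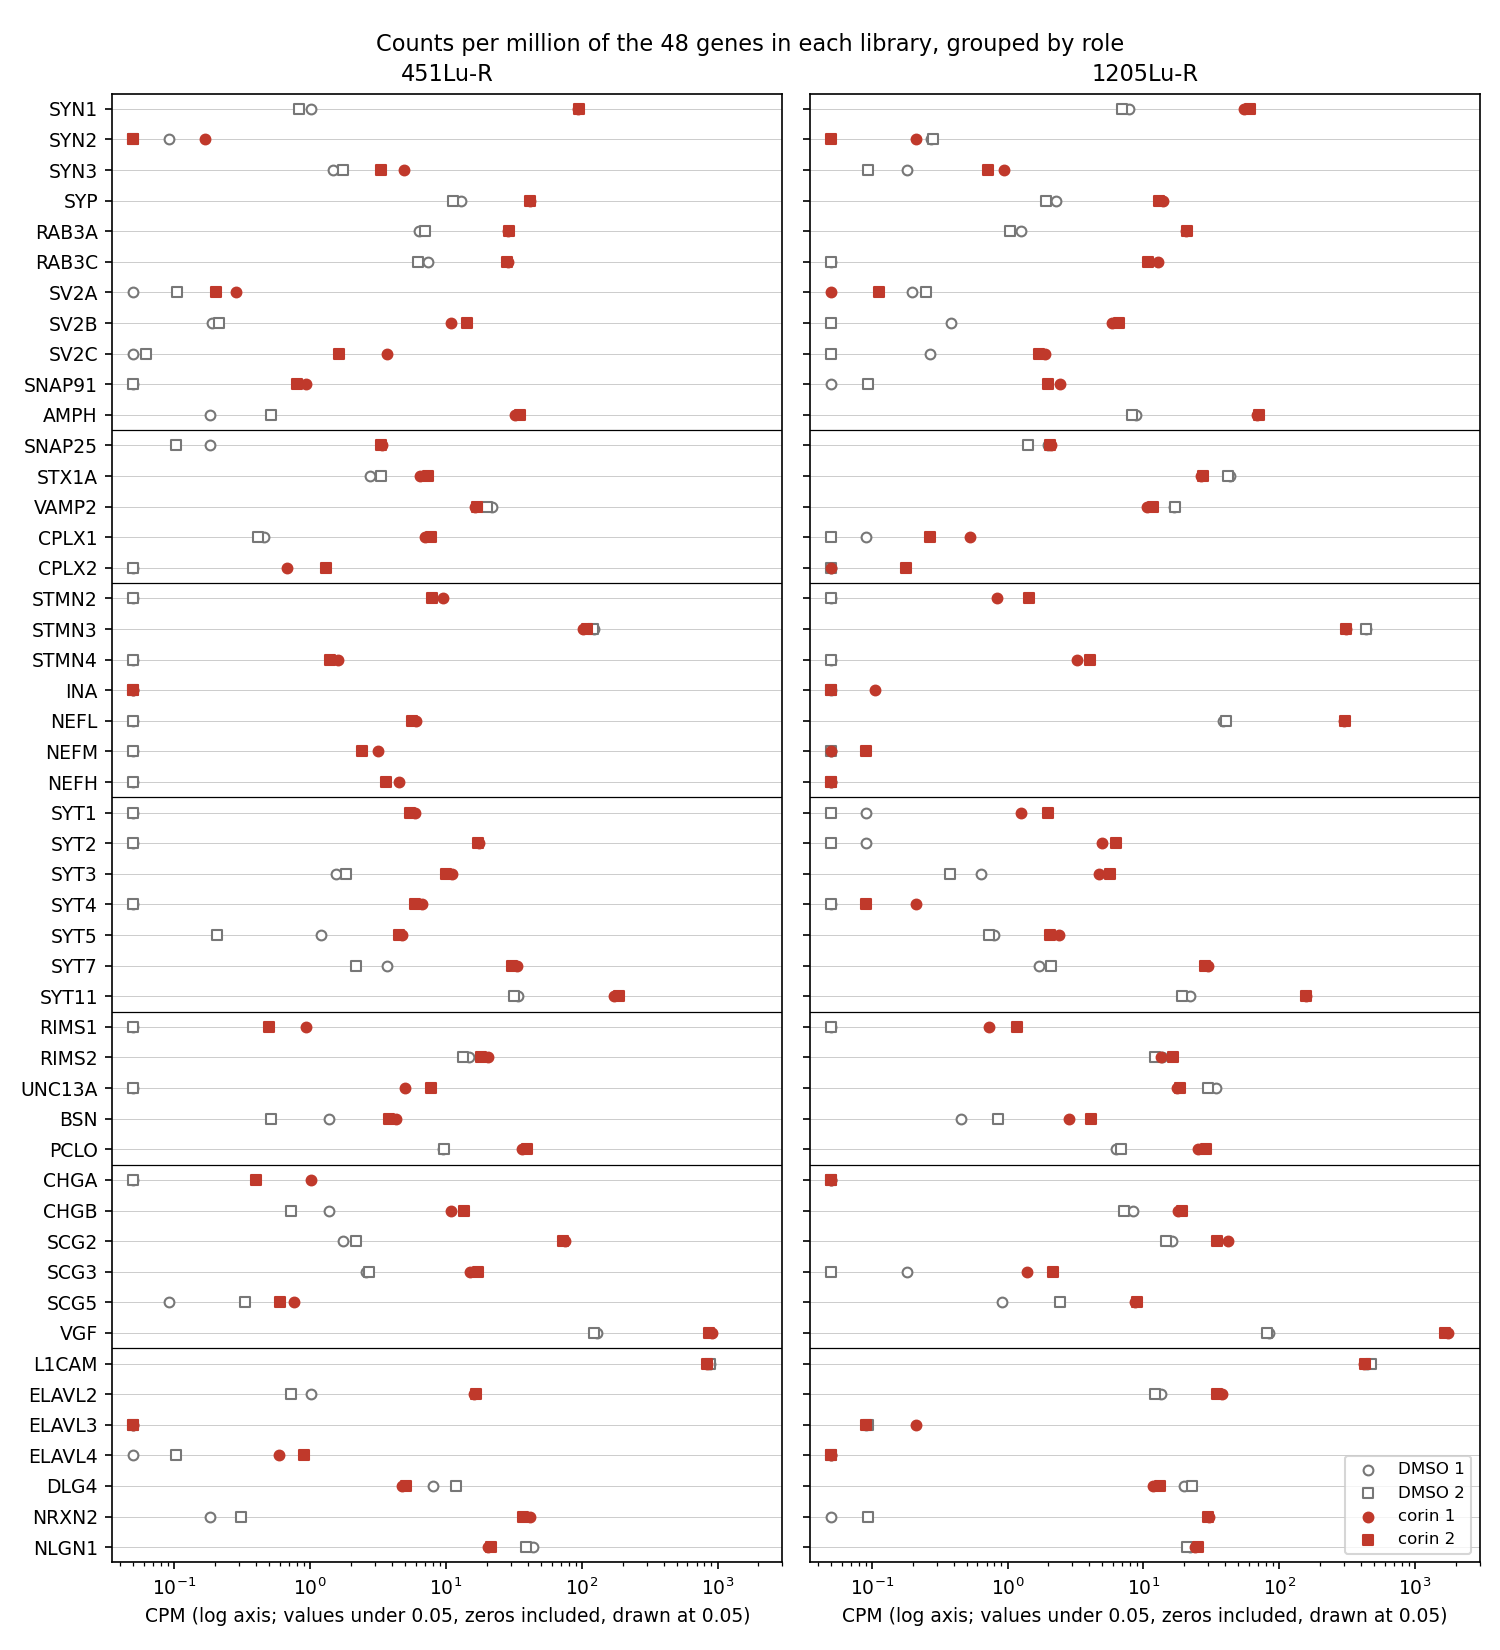
Level of each of the 48 genes (rows, grouped by role between the black lines) in CPM on a log axis, with DMSO libraries as open grey symbols and corin libraries as filled red symbols, and values under 0.05 CPM drawn at 0.05. Most red symbols lie to the right of the grey ones in both lines, while VAMP2, STMN3, L1CAM and DLG4 have red symbols on or to the left of the grey ones.

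Corin was compared with DMSO in each line with edgeR's quasi-likelihood test over all genes that passed the filter on low counts, and adjusted p-values are Benjamini-Hochberg values over those genes. A gene rose or fell at an adjusted p under 0.05. In 451Lu-R, 38 of the 48 genes were tested, of which 33 rose, 4 fell and 1 did not pass. Among all genes tested in this line, 41.3% rose and 38.6% fell. A rise of at least 4-fold with an adjusted p under 0.001 was found for 29 of the 38, against 12.4% of all genes tested. In 1205Lu-R, 34 genes were tested, and 25 rose, 6 fell and 3 did not pass, where 40.4% of all genes tested rose and 37.8% fell. The stricter threshold was passed upward by 20 of the 34, against 11.3% of all genes tested. The median log2 fold change was 3.56 in 451Lu-R and 2.71 in 1205Lu-R, beside 0.03 over all genes tested in either line. With the 9 genes that had no DMSO counts in 451Lu-R set to their lower bound, the median there was 3.45. Only genes with enough counts in some library were tested, so a gene near 0 with DMSO entered only through its corin libraries, and these counts do not speak for the set as a whole.

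In both lines, 23 genes rose and 17 passed the stricter threshold upward: SYN1, SV2B, SV2C, AMPH, RAB3A, RAB3C, SYT1, SYT2, SYT3, SYT7, SYT11, BSN, SCG3, VGF, NEFL, STMN4 and NRXN2. In 451Lu-R alone, 12 more passed it (CHGB, CPLX1, ELAVL2, NEFH, NEFM, PCLO, SCG2, SNAP25, STMN2, SYT4, SYT5 and UNC13A), and in 1205Lu-R alone 3 more (SCG5, SNAP91 and SYP). Of these 15, CHGB, ELAVL2, PCLO, SCG2, SYT5 and SYP also rose in the other line, by less. The difference between the lines is tested further on. It did not pass for PCLO (log2 difference -0.16, 1205Lu-R minus 451Lu-R, edgeR adjusted p = 0.506) or SYT5 (-1.36, edgeR adjusted p = 0.0973). DLG4, STMN3 and VAMP2 fell in both lines, and no gene fell by 4-fold. The genes not tested in either line were CHGA, CPLX2, ELAVL3, ELAVL4, INA, RIMS1, SV2A and SYN2, with at most 13 counts in any library.

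**Figure D2:**
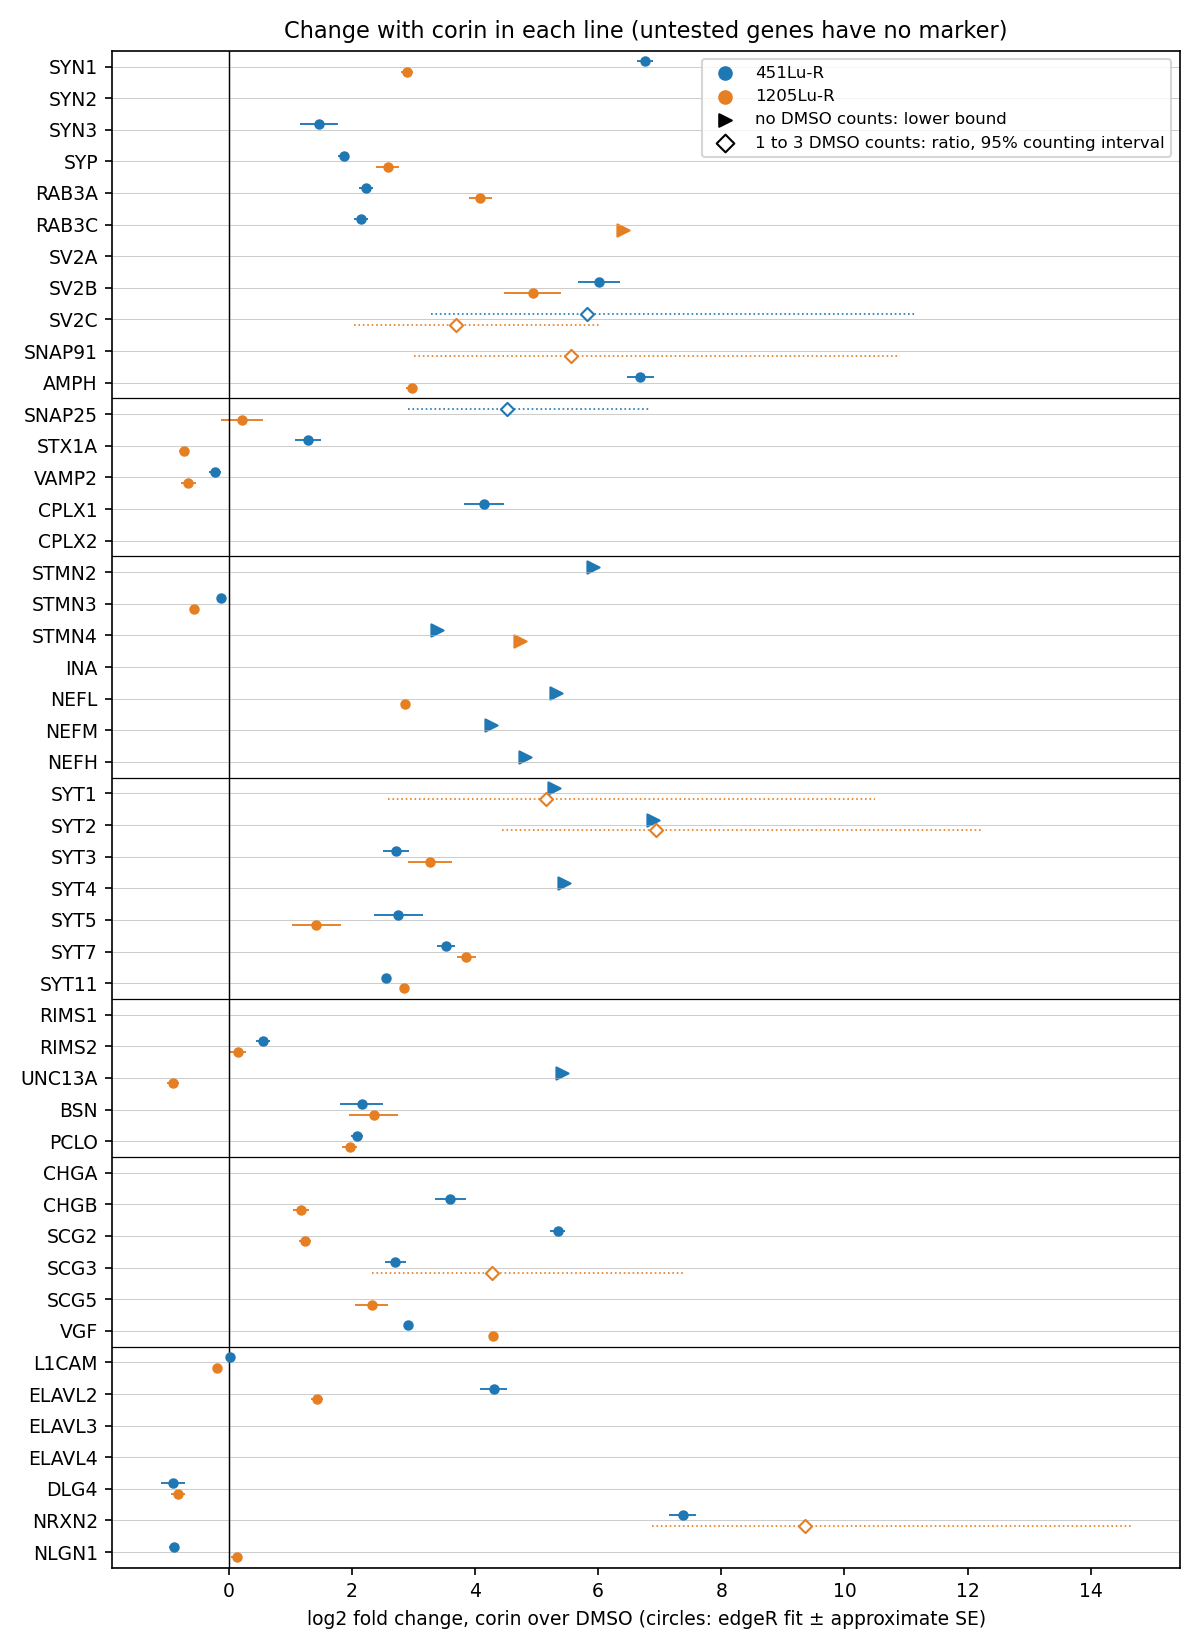
Log2 fold change of corin over DMSO for each gene (rows, grouped by role) in 451Lu-R (blue) and 1205Lu-R (orange). Circles are edgeR fits ± approximate SE, triangles are lower bounds for genes without DMSO counts, and diamonds are count ratios with 95% counting intervals; most symbols lie to the right of 0, and UNC13A and STX1A lie on opposite sides of it in the 2 lines.

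Of the genes for the vesicle membrane and its coat and tether proteins, 11 were in the set. All 8 tested in 451Lu-R rose, 6 of them past the stricter threshold, and all 8 tested in 1205Lu-R passed it. SYN1 (ENSG00000008056, GRCh38 chrX, 47571901 to 47619857, minus strand) encodes synapsin-1, which ties vesicles to actin. It stood at 1.01 and 0.828 CPM with DMSO against 93.8 and 96.0 CPM after corin in 451Lu-R, and at 7.77 and 6.97 CPM against 54.9 and 60.5 CPM in 1205Lu-R. Groups did not overlap in either line, and both corin groups were far above both DMSO groups. The log2 fold change was 6.76 ± 0.13 (approximate SE, here and below) in 451Lu-R (edgeR adjusted p = 6.84e-20) and 2.90 ± 0.10 in 1205Lu-R (edgeR adjusted p = 5.63e-17).

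AMPH (chr7, 38383704 to 38631420, minus strand) encodes amphiphysin, which bends membrane during vesicle retrieval. Its level was 0.183 and 0.517 CPM with DMSO against 32.4 and 35.3 CPM after corin in 451Lu-R, and 8.77 and 8.19 CPM against 69.0 and 71.0 CPM in 1205Lu-R. As for SYN1, the rise was smaller in 1205Lu-R. The log2 fold change was 6.68 ± 0.22 in 451Lu-R (edgeR adjusted p = 4.08e-16) and 2.97 ± 0.09 in 1205Lu-R (edgeR adjusted p = 3.02e-18). In 451Lu-R it was 6.08 and 7.52 without the first and second DMSO library. SNAP91, a clathrin adaptor of nerve terminals, was too low for a test in 451Lu-R, with 0 and 0 counts against 11 and 8. The 1205Lu-R counts were 0 and 1 against 23 and 22, a ratio of 47.3 (95% counting interval 8.07 to 1910, edgeR adjusted p = 1.3e-06).

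RAB3A and RAB3C encode small GTPases that bring vesicles to the release site. RAB3A (chr19, 18196784 to 18204042, minus strand) had 6.33 and 7.04 CPM with DMSO against 28.8 and 29.3 CPM after corin in 451Lu-R, and 1.27 and 1.04 CPM against 20.7 and 20.8 CPM in 1205Lu-R. Its log2 fold change was 2.22 ± 0.11 in 451Lu-R (edgeR adjusted p = 5.03e-13) and 4.08 ± 0.19 in 1205Lu-R (edgeR adjusted p = 1.15e-14). RAB3C (chr5, 58582221 to 58859394, plus strand) had 7.43 and 6.21 CPM with DMSO against 28.6 and 28.2 CPM after corin in 451Lu-R, a log2 change of 2.15 ± 0.12 (edgeR adjusted p = 1.2e-12). In 1205Lu-R no DMSO library had a RAB3C count, and the corin libraries had 121 and 120 counts, so the level was at least 84.5-fold higher (floor of 3 counts over the DMSO group, edgeR adjusted p = 7.94e-13). Both RAB3 genes rose more in 1205Lu-R, while SYN1 and AMPH rose more in 451Lu-R. In each case the line with the larger rise had less of the RNA with DMSO. Level and rise share the DMSO libraries, so they are only set side by side.

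SV2 proteins are vesicle glycoproteins that help prime release. SV2B (chr15, 91099950 to 91302565, plus strand) had 2 and 2 counts with DMSO against 129 and 142 after corin in 451Lu-R, a log2 change of 6.02 ± 0.34 (edgeR adjusted p = 3e-12). In 1205Lu-R it had 4 and 0 counts against 56 and 74, with 4.93 ± 0.47 (edgeR adjusted p = 2.91e-09). The size rests on the uneven DMSO pair: it was 9.01 (log2) without the first DMSO library and 3.99 without the second. SV2C (chr5, 76083383 to 76353939, plus strand) had 0 and 1 counts with DMSO against 43 and 16 after corin in 451Lu-R, and 3 and 0 against 18 and 19 in 1205Lu-R. The count ratios were 56.6 (95% counting interval 9.78 to 2273, edgeR adjusted p = 2.16e-06) and 13.0 (4.11 to 65.7, edgeR adjusted p = 5.05e-05). SV2A, the family member of most synapses, stayed at 3 counts or fewer in all 8 libraries. Counts of SYN2 also stayed at 3 or fewer, while SYN3 rose in 451Lu-R by 1.46 ± 0.30 (log2) (edgeR adjusted p = 0.000203), from 16 and 17 to 58 and 33 counts. SYP, synaptophysin, the most common marker protein of synaptic vesicles, rose from 13.0 and 11.3 to 41.6 and 41.5 CPM in 451Lu-R (log2 fold change 1.86 ± 0.09, edgeR adjusted p = 2.52e-13). The 1205Lu-R libraries went from 2.28 and 1.93 to 14.0 and 12.9 CPM (2.58 ± 0.19, edgeR adjusted p = 2.94e-11).

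Synaptotagmins bind calcium, or in some members have lost that ability, and couple it to fusion. All 7 rose in 451Lu-R, each at least 4-fold, and all 6 tested in 1205Lu-R rose, 5 of them past the stricter threshold. SYT11 (chr1, 155859567 to 155885199, plus strand), a member that does not bind calcium, was the highest of the family per kb of exonic length. It had 33.7 and 31.8 CPM with DMSO against 174 and 188 CPM after corin in 451Lu-R, and 22.1 and 19.4 CPM against 157 and 157 CPM in 1205Lu-R. The rise was similar in size in both lines, with log2 fold changes of 2.56 ± 0.06 (edgeR adjusted p = 5.74e-19) and 2.84 ± 0.06 (edgeR adjusted p = 4.92e-21). SYT7 (chr11, 61513714 to 61581148, minus strand), a slow high-affinity sensor also found outside neurons, went from 3.67 and 2.17 to 33.1 and 30.7 CPM in 451Lu-R and from 1.72 and 2.07 to 29.7 and 28.3 CPM in 1205Lu-R. Its log2 fold changes were 3.53 ± 0.15 (edgeR adjusted p = 2.93e-14) and 3.86 ± 0.16 (edgeR adjusted p = 1.16e-15).

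The fast sensors of the synapse, SYT1 and SYT2, had next to no RNA with DMSO. SYT2 (chr1, 202590596 to 202710454, minus strand) had 0 and 0 counts with DMSO against 205 and 171 after corin in 451Lu-R, so it was at least 118-fold higher (edgeR adjusted p = 8.2e-14), the largest fitted rise among the 49 genes in this line. The counts of SYT2 in 1205Lu-R were 1 and 0 against 47 and 70, a ratio of 123 (95% counting interval 21.6 to 4899, edgeR adjusted p = 7.37e-10). PPP1R12B lies on the opposite strand and overlaps 27.0% of the exonic bases of SYT2. The strand setting of the quantification is not given in the sources used here, so reads in that stretch could come from either gene. SYT1 (chr12, 78863993 to 79452008, plus strand) had 0 and 0 counts against 70 and 54 in 451Lu-R, at least 39.0-fold higher (edgeR adjusted p = 7.24e-10). For SYT1 in 1205Lu-R, counts were 1 and 0 against 12 and 22, a ratio of 35.7 (95% counting interval 6 to 1453, edgeR adjusted p = 1.28e-05).

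SYT3 (chr19, 50621307 to 50639881, minus strand), a high-affinity member mostly found on the plasma membrane, rose from 17 and 18 to 130 and 100 counts in 451Lu-R and from 7 and 4 to 45 and 63 counts in 1205Lu-R. The log2 fold changes were 2.72 ± 0.21 (edgeR adjusted p = 4.73e-10) and 3.26 ± 0.36 (edgeR adjusted p = 3.38e-08). SYT4 (chr18, 43267892 to 43277535, minus strand), found on dense-core vesicles, had no DMSO counts in any library and 79 and 59 with corin in 451Lu-R, at least 43.4-fold higher (edgeR adjusted p = 3.48e-10). In 1205Lu-R it had 2 and 1 counts with corin and was not tested. SYT5 had 13 and 2 counts with DMSO in 451Lu-R, an uneven pair, against 56 and 45 with corin (log2 fold change 2.75 ± 0.40, edgeR adjusted p = 3.1e-06). It was 4.49 without the first DMSO library and 2.04 without the second. It rose by 1.42 ± 0.39 in 1205Lu-R (edgeR adjusted p = 0.00246), where the adjusted p was 0.0558 with DESeq2.

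The SNARE and complexin genes did not move together. In 451Lu-R, 3 of the 4 tested rose and VAMP2 fell. In 1205Lu-R none of the 3 tested rose, STX1A and VAMP2 fell and SNAP25 did not pass. STX1A, syntaxin-1A, the plasma membrane SNARE, had 2.75 and 3.31 CPM with DMSO against 6.44 and 7.40 CPM after corin in 451Lu-R, a log2 change of 1.29 ± 0.22 (edgeR adjusted p = 1.97e-05). STX1A in 1205Lu-R had 43.4 and 41.8 CPM against 26.7 and 27.3 CPM, a fall of 0.73 (log2) (edgeR adjusted p = 8.68e-09). Even after this fall, the 1205Lu-R libraries lay above every 451Lu-R library. SNAP25, the other plasma membrane SNARE, had 2 and 1 counts with DMSO against 40 and 33 after corin in 451Lu-R, a ratio of 23.0 (95% counting interval 7.55 to 114, edgeR adjusted p = 9.2e-08). SNAP25 in 1205Lu-R had 22 and 15 counts against 20 and 23, and did not pass (edgeR adjusted p = 0.574).

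VAMP2, synaptobrevin-2, the vesicle SNARE, was one of the few genes of the set with substantial RNA in every group. It had 21.7 and 20.1 CPM with DMSO against 16.3 and 17 CPM with corin in 451Lu-R, where the log2 fold change was -0.23 ± 0.10 (edgeR adjusted p = 0.0421). That call was lost under 8 of the other settings, with adjusted p-values up to 0.338 (DESeq2). In 1205Lu-R VAMP2 went from 16.7 and 17.1 to 10.7 and 11.8 CPM, with -0.66 ± 0.12 (edgeR adjusted p = 3.54e-05). Another protein-coding gene on the same strand covers 11.9% of its exonic bases. CPLX1, complexin-1, which clamps the assembled SNAREs, had 5 and 4 counts with DMSO against 83 and 78 after corin in 451Lu-R (log2 fold change 4.14 ± 0.32, edgeR adjusted p = 4.37e-10). With at most 5 counts in a library it was not tested in 1205Lu-R.

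Active zone scaffolds build the release site. BSN, bassoon (chr3, 49554477 to 49671549, plus strand), had 15 and 5 counts with DMSO against 51 and 38 after corin in 451Lu-R, and 5 and 9 against 27 and 46 in 1205Lu-R. The log2 fold changes were 2.16 ± 0.36 (edgeR adjusted p = 1.61e-05) and 2.35 ± 0.40 (edgeR adjusted p = 1.57e-05). Leaving out each library in turn gave 1.65 to 3.04 in 451Lu-R and 1.95 to 2.84 in 1205Lu-R. The lower end was under 4-fold in each line. PCLO, piccolo, had 9.54 and 9.62 CPM against 36.4 and 39.6 CPM in 451Lu-R (2.08 ± 0.10, edgeR adjusted p = 1.48e-13), and 6.33 and 6.87 CPM against 25.3 and 28.7 CPM in 1205Lu-R (1.96 ± 0.12, edgeR adjusted p = 3.16e-12). These giant scaffolds rose by a like factor in both lines. RIMS2, a RIM scaffold with 12.1 to 14.7 CPM in the 4 DMSO libraries, rose by 0.55 ± 0.11 (log2) in 451Lu-R (edgeR adjusted p = 0.000131) and did not pass in 1205Lu-R (0.15 ± 0.13, edgeR adjusted p = 0.282). UNC13A, which primes vesicles, had 0 and 0 counts with DMSO against 59 and 77 after corin in 451Lu-R, at least 42.8-fold higher (edgeR adjusted p = 1.71e-09). UNC13A in 1205Lu-R had 34.4 and 30.1 CPM with DMSO against 17.7 and 18.5 CPM with corin, a log2 change of -0.90 ± 0.09 (edgeR adjusted p = 1.28e-08). UNC13A and STX1A, which bind each other during priming, were the only genes of the set with a rise in 451Lu-R and a fall in 1205Lu-R.

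Granins and other granule proteins rose wherever they were tested (451Lu-R, 4 of 4 genes; 1205Lu-R, 5 of 5 genes). VGF (chr7, 101162509 to 101165569, minus strand), the precursor of several neuroendocrine peptides, had the highest level per kb of the 48 genes with corin in both lines. Its libraries held 129 and 122 CPM with DMSO against 915 and 858 CPM after corin in 451Lu-R, and 83.5 and 81.4 CPM against 1746 and 1663 CPM in 1205Lu-R. The corin libraries of 1205Lu-R stood above those of 451Lu-R, although the DMSO libraries of 1205Lu-R stood below. The log2 fold change was 2.92 ± 0.03 (edgeR adjusted p = 6.46e-23) in 451Lu-R and 4.30 ± 0.05 (edgeR adjusted p = 1e-25) in 1205Lu-R, or 7.55-fold and 19.6-fold.

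SCG2 (chr2, 223596940 to 223602361, minus strand), secretogranin-2, was among the 5 highest genes per kb in 451Lu-R with corin. It had 1.74 and 2.17 CPM with DMSO against 75.4 and 73.0 CPM after corin there, and 16.4 and 14.7 CPM against 42.3 and 35.0 CPM in 1205Lu-R. The log2 fold changes were 5.34 ± 0.12 (edgeR adjusted p = 1.02e-18) and 1.23 ± 0.10 (edgeR adjusted p = 2.91e-10). CHGB, chromogranin B, followed the same pattern with 3.60 ± 0.25 in 451Lu-R (edgeR adjusted p = 7.82e-11) and 1.18 ± 0.13 in 1205Lu-R (edgeR adjusted p = 3.72e-08). SCG3 (chr15, 51681492 to 51721026, plus strand), which sorts granins into granules, had 28 and 26 counts with DMSO against 178 and 171 after corin in 451Lu-R, a log2 change of 2.70 ± 0.17 (edgeR adjusted p = 1.7e-11). In 1205Lu-R it had 2 and 0 counts against 13 and 24, a ratio of 19.4 (95% counting interval 5.02 to 167, edgeR adjusted p = 2.57e-05). SCG5, a chaperone of a prohormone convertase, rose in 1205Lu-R from 10 and 26 to 82 and 99 counts (2.32 ± 0.27, edgeR adjusted p = 6.83e-08). Its log2 change ran from 1.75 to 3.17 when each library was left out in turn, with the lower end under 4-fold. A readthrough gene from ARHGAP11A shares 51.4% of the exonic bases of SCG5. CHGA, chromogranin A, had 12 and 4 counts with corin in 451Lu-R and none in the other 6 libraries.

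Of the 7 cytoskeletal genes, 5 of the 6 tested rose in 451Lu-R (NEFL, NEFM, NEFH, STMN2 and STMN4). In 1205Lu-R 3 were tested, of which NEFL and STMN4 rose, and STMN3 fell in both lines. NEFL, the light neurofilament subunit, had 0 and 0 counts with DMSO against 71 and 56 after corin in 451Lu-R, at least 39.9-fold higher (edgeR adjusted p = 5.83e-10). In 1205Lu-R it already had 38.9 and 40.8 CPM with DMSO and reached 298 and 307 CPM with corin, a log2 change of 2.85 ± 0.04 (edgeR adjusted p = 5.78e-23). The medium and heavy subunits, NEFM and NEFH, had no counts in any DMSO library, and with corin they appeared in 451Lu-R only, with 37 and 24 counts for NEFM and 53 and 36 for NEFH. Those were rises of at least 19.2-fold (edgeR adjusted p = 1.39e-07) and at least 28.0-fold (edgeR adjusted p = 1.17e-08). In 1205Lu-R with corin, the 2 libraries together held 1 count of NEFM and none of NEFH beside 6252 of NEFL. INA, alpha-internexin, had 1 count in all 8 libraries.

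STMN2, a stathmin of growth cones, had 0 and 0 counts with DMSO against 113 and 79 after corin in 451Lu-R, at least 60.4-fold higher (edgeR adjusted p = 4.25e-11). In 1205Lu-R it went from 0 and 0 to 8 and 16 counts, too few for the test. STMN4, a related brain stathmin, had no DMSO counts in either line. It reached 19 and 14 counts with corin in 451Lu-R, and the 1205Lu-R libraries reached 31 and 45, at least 10.4-fold (edgeR adjusted p = 4.98e-06) and at least 26.6-fold (edgeR adjusted p = 1.64e-08) higher. STMN3 (chr20, 63639705 to 63657682, minus strand), by contrast, was well expressed before drug, with 123 and 121 CPM in 451Lu-R and 434 and 436 CPM in 1205Lu-R. With corin it stood at 102 and 109 CPM, a log2 change of -0.12 ± 0.04 (edgeR adjusted p = 0.0127), and at 310 and 311 CPM, with -0.56 ± 0.03 (edgeR adjusted p = 9.38e-14). In 451Lu-R the fall of STMN3 did not pass with DESeq2 (adjusted p = 0.229) or without the first corin library (edgeR adjusted p = 0.26).

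The remaining genes are neuronal RNA-binding and adhesion proteins and a scaffold. NRXN2 (chr11, 64606174 to 64723197, minus strand), neurexin-2, a presynaptic adhesion protein, had 2 and 3 counts with DMSO against 490 and 371 after corin in 451Lu-R, and 0 and 1 against 291 and 331 in 1205Lu-R. The log2 fold change in 451Lu-R was 7.37 ± 0.22 (edgeR adjusted p = 7.37e-17). In 1205Lu-R the ratio was 654 (95% counting interval 117 to 25868, edgeR adjusted p = 5.56e-17). ELAVL2, an RNA-binding protein of the Hu family, rose from 1.01 and 0.724 to 16.0 and 16.7 CPM in 451Lu-R (4.30 ± 0.22, edgeR adjusted p = 3.91e-13). It rose from 13.5 and 12.1 to 38.1 and 34.9 CPM in 1205Lu-R (1.43 ± 0.10, edgeR adjusted p = 9.8e-12). ELAVL3 and ELAVL4 had at most 2 and 9 counts in any library.

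L1CAM (chrX, 153861514 to 153886173, minus strand), a cell adhesion protein of axons and of many tumours, was high in all groups and nearly flat. It had 884 and 874 CPM with DMSO against 837 and 829 CPM after corin in 451Lu-R, where the log2 fold change relative to the TMM scaling was 0.02 ± 0.02 (edgeR adjusted p = 0.287). Scaled by library size only it was -0.08 there, so its direction in 451Lu-R rests on the scaling. L1CAM in 1205Lu-R had 443 and 476 CPM against 418 and 428 CPM, a fall of 0.19 (log2) (edgeR adjusted p = 2.04e-05). DLG4, the postsynaptic scaffold PSD-95, fell by 0.90 in 451Lu-R (87 and 115 to 56 and 51 counts, edgeR adjusted p = 0.000344) and by 0.83 in 1205Lu-R (219 and 242 to 112 and 148 counts, edgeR adjusted p = 1.24e-06). NLGN1, a postsynaptic partner of neurexins, fell by 0.89 in 451Lu-R, from 44 and 38.7 to 20.3 and 21.6 CPM (edgeR adjusted p = 1.04e-08). In 1205Lu-R it did not pass (0.13 ± 0.09, edgeR adjusted p = 0.213).

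Per kb of exonic length, which allows levels of different genes to be set side by side, the 5 highest genes with DMSO in 451Lu-R were L1CAM (121 CPM per kb), VGF (46.9), STMN3 (40.4), SYT11 (6.31) and VAMP2 (6.16). With corin they were VGF (331 CPM per kb), L1CAM (115), SYT11 (34.9), STMN3 (34.7) and SCG2 (28.8). In 1205Lu-R the order with DMSO was STMN3 (144 CPM per kb), L1CAM (63.2), VGF (30.8), STX1A (11.5) and NEFL (10.1). With corin it was VGF (636 CPM per kb), STMN3 (103), NEFL (76.8), L1CAM (58.2) and SYT11 (30.3). In both lines VGF moved to the first place. SYT11 and STMN3 differed by less than 1 CPM per kb in 451Lu-R with corin, within the spread of their libraries. With DMSO, 7 genes (L1CAM, NLGN1, RIMS2, STMN3, SYT11, VAMP2 and VGF) already had 10 CPM or more in both lines. Of these, SYT11 and VGF passed the stricter threshold upward in both lines, and the other 5 did so in neither.

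The 2 lines differed in these genes before drug. With DMSO, 25 genes were tested, of which 11 were higher in 1205Lu-R, 11 were lower and 3 (VAMP2, SYT7 and RIMS2) did not pass. The shares over all genes tested were 41.0% higher and 41.5% lower, so at this threshold the set is not set apart. With a difference of at least 4-fold and an adjusted p under 0.001, 9 of the 25 were higher and 5 lower. Over all 14104 genes tested, 1429 were higher and 1493 lower by that rule. UNC13A was at least 222-fold higher in 1205Lu-R (edgeR adjusted p = 9.38e-19) and NEFL at least 273-fold higher (edgeR adjusted p = 4.15e-20), since neither had a count in 451Lu-R with DMSO. RAB3C, with no count in 1205Lu-R, was at least 49.6-fold lower there (edgeR adjusted p = 7.42e-12). AMPH (log2 difference 4.70), ELAVL2 (3.96), STX1A (3.92), SYN1 (3.09), SCG2 (3.09) and CHGB (2.96) were also higher in 1205Lu-R, with edgeR adjusted p-values of 3.83e-10 or less. RAB3A (-2.42, edgeR adjusted p = 9.97e-09) and SYP (-2.41, edgeR adjusted p = 7.06e-11) were lower.

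Whether the response to corin differed between the lines was tested with the interaction term over all 8 libraries, written as 1205Lu-R minus 451Lu-R. Of 41 genes tested, 6 had a higher and 13 a lower value, where 22.6% of all genes tested were higher and 27.1% lower. Scaled by library size only, 64.0% of the calls over all genes were higher, in place of 45.4%, and the median over all genes moved from -0.01 to 0.20. The response was smaller in 1205Lu-R for SCG2 (-4.15 ± 0.20, edgeR adjusted p = 1.92e-13), SYN1 (-3.90 ± 0.24, edgeR adjusted p = 1.2e-11), AMPH (-3.75 ± 0.33, edgeR adjusted p = 4.44e-09), ELAVL2 (-2.91 ± 0.26, edgeR adjusted p = 5.15e-09) and CHGB (-2.46 ± 0.31, edgeR adjusted p = 1.06e-06). It was larger there for RAB3A (1.82 ± 0.25, edgeR adjusted p = 3.28e-06) and VGF (1.34 ± 0.10, edgeR adjusted p = 1.34e-10). STX1A, with -2.06 ± 0.20 (edgeR adjusted p = 1.29e-08), changed direction between lines. For RAB3C (edgeR adjusted p = 7.59e-08), UNC13A (edgeR adjusted p = 1e-10) and NEFL (edgeR adjusted p = 1.57e-05) the direction is fixed by the counts, while the size depends on how a DMSO group without counts is treated. For genes without counts in any DMSO library, such as STMN2, STMN4, SYT4, NEFM and NEFH, this fit gives no usable estimate of the difference, with an edgeR adjusted p of 1. DESeq2 called a smaller response in 1205Lu-R for NEFH (-7.94, DESeq2 adjusted p = 0.0105) and SYT4 (-5.55, DESeq2 adjusted p = 0.0447), again of uncertain size. SCG2, SYN1, AMPH, ELAVL2 and CHGB also had more RNA in 1205Lu-R than in 451Lu-R before drug, but the comparison of lines with DMSO and the interaction share the DMSO libraries, so the values are only set side by side.

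**Figure D3:**
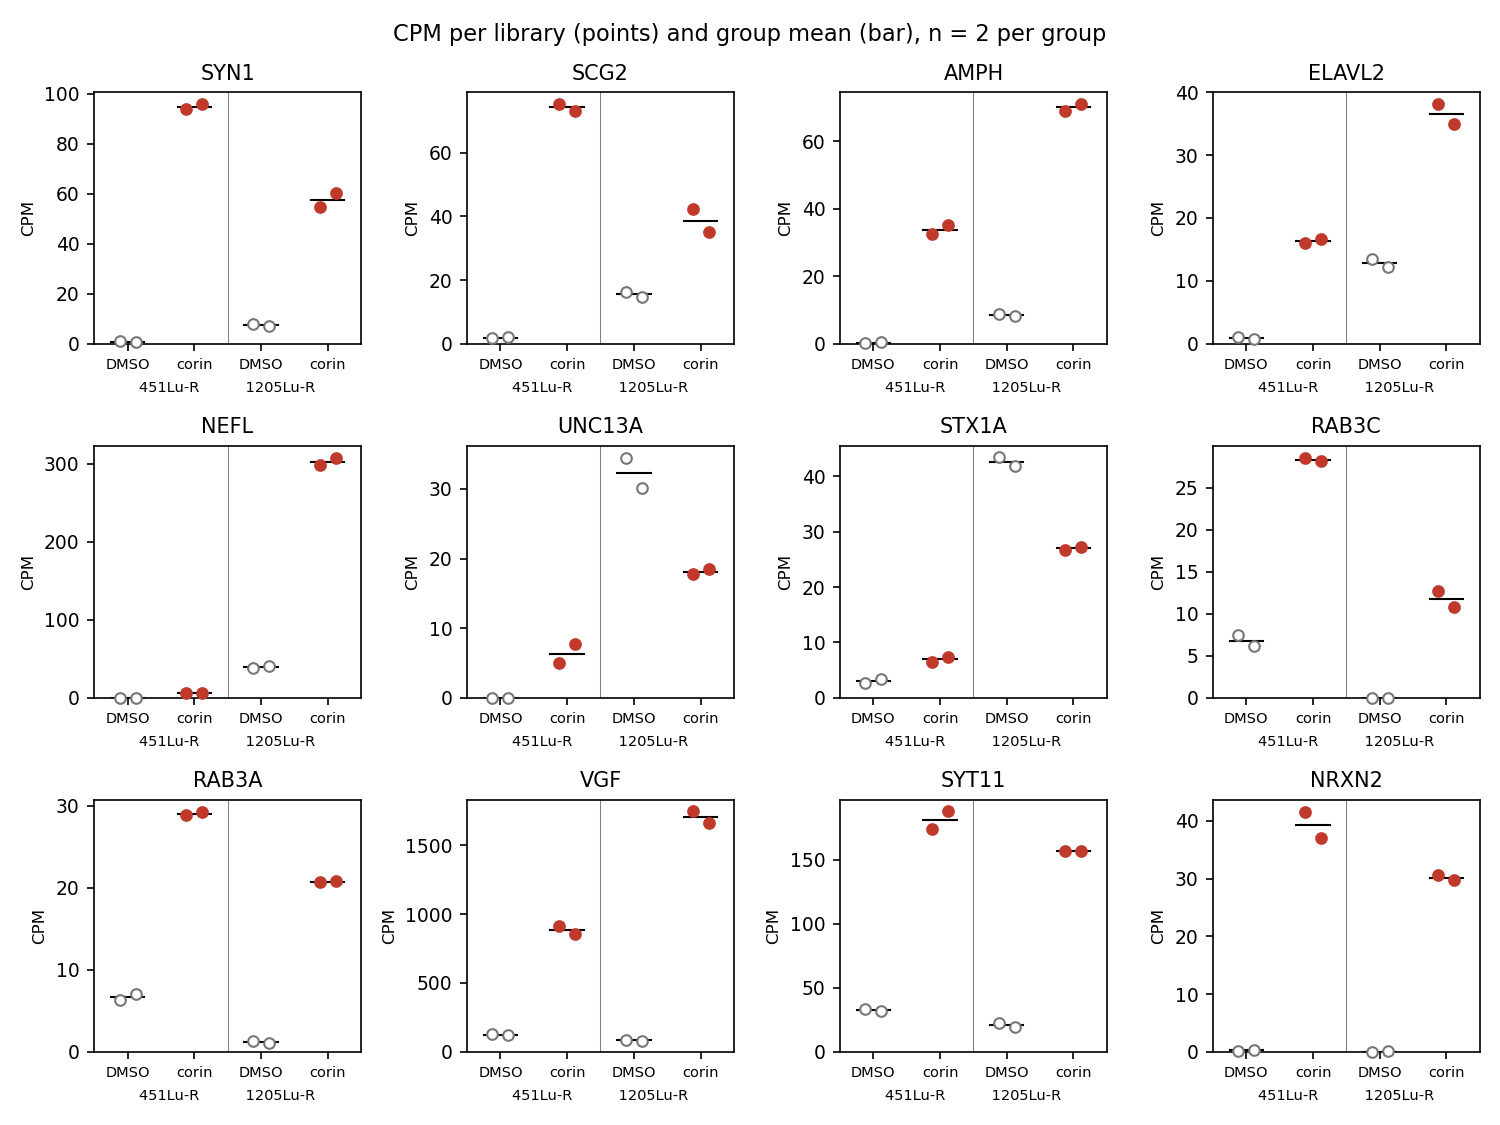
CPM of 12 genes per library (points; open, DMSO; filled red, corin) with the group mean (bar), for 451Lu-R on the left and 1205Lu-R on the right of each panel, on linear axes from 0. With corin, SYN1 was between 54.9 and 96.0 CPM in all 4 libraries; UNC13A and STX1A moved in opposite directions in the 2 lines.

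The levels of the 2 lines after corin can be set side by side. SYN1 reached 93.8 and 96.0 CPM in 451Lu-R and 54.9 and 60.5 CPM in 1205Lu-R, RAB3A 28.8 and 29.3 against 20.7 and 20.8 CPM, and NRXN2 41.5 and 37.1 against 30.6 and 29.8 CPM. NEFL stood at 6.02 and 5.60 CPM in 451Lu-R with corin, below the 38.9 and 40.8 CPM of 1205Lu-R without it. SYT1, SYT2, SYT4, CPLX1, STMN2, SCG3 and NEFH had more CPM in both 451Lu-R corin libraries than in either 1205Lu-R corin library. The reverse held for AMPH, ELAVL2, CHGB, VGF, UNC13A, STX1A, STMN3 and SCG5, so the set went both ways. These genes are examples, and the share over all genes was not counted. These levels after corin are given as a description, with no test.

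RE1 elements were looked for near these genes because REST brings CoREST, the complex that corin inhibits, to them. The letters TTCAGCACC, a gap of 2 bases and GGACAGCGC were searched on both strands within 5.00 kb either side of the annotated start of each gene in GRCh38, with up to 3 of the 18 letters allowed to differ. A match was found for 15 of the 48 genes, or 31.2%, and for 513 of 20046 protein-coding genes, or 2.56%. With at most 1 differing letter these shares were 9 of 48 (18.8%) and 75 of 20046 (0.374%). The set was named for genes that are silent outside neurons, for which RE1 elements are textbook knowledge, so the share is a description of the set. The sequences below show what was found, 5′ to 3′ on the strand of the match, with the compared letters in capitals. The matches near NEFM and STMN2 are not printed.
CHGA: gagttTTCAGCACCgcGGACAGCGCctccg
CHGB: ggccgGTCAGCACCgcGGACAGCGCcagcc
CPLX2: gtcctTTCAGCACCacGGAGAGCGCacccg
INA: tcgagATCAGCACCgtGGACAGCGCcccga
NEFH: ggcgcTTCAGCACCggGGACAGGGCctgct
SNAP25: gacctTTCAGCACCggGGACAGCGGtccgg
SYN1: ccagcTTCAGCACCgcGGACAGTGCcttcg
SYT5: ccgcgATCAGCACCcgGGACAGCGCcaccg
VGF: ccggcTTCAGCACGctGGACAGCGCccgcg
SYP: cgcgcTCCAGCACCgtGGACAGAGCccgcc
SYT4: ttcccTTCAGCACCtcGGACAGAACacgca
Only CHGA, of these, holds all 18 letters. The match of SYN1 lies 223 bases upstream of its start (chrX:47620066-47620095, minus strand), that of VGF at its start in the first exon (chr7:101165554-101165583, plus strand), and that of SYP in an intron 61 bases from its start (chrX:49200118-49200147, minus strand). SNAP25 holds its match in an intron 851 bases downstream (chr20:10219667-10219696, plus strand). Matches with 3 differing letters were also found near SV2B and ELAVL3.

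The 250 bases before the start of SYN1 are shown because this gene had a match there and passed the stricter threshold upward in both lines. They come from RefSeq (GRCh38.p14, chrX:47619858-47620107, minus strand), and the capitals mark the match with its gap.
SYN1 promoter: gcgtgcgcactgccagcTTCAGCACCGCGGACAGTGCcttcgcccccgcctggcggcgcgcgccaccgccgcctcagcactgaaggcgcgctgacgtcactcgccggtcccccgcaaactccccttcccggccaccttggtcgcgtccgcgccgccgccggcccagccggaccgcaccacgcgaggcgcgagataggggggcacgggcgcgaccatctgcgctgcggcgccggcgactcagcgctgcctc
In the RefSeq table of promoters, from 250 bases before to 50 after each start, 34 of the 48 genes were found. A match lay inside that window for 2 of the 34 (5.88%) and for 0.128% of the 35116 promoters in the table.

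Genes with and without a match were found among those that rose. Of the 32 genes that passed the stricter threshold upward in at least 1 line, 11 had a match, and of the other 16 genes 4 had one (CHGA, CPLX2, ELAVL3 and INA). Those 4 were too low for the test, with at most 13 counts in any library. From no DMSO counts in 451Lu-R, CHGA reached 16 counts over both corin libraries, at least 5.03-fold higher, and CPLX2 reached 21, at least 6.60-fold higher. AMPH, NRXN2, SYT11, SYT7, SYT2, RAB3A, RAB3C and UNC13A, which rose in one or both lines, held none within the window, which says only that these letters are not there. Of the 3 neurofilament genes and INA, all but NEFL had a match. NEFH and NEFM rose in 451Lu-R from no DMSO counts, by at least 28.0-fold and 19.2-fold. In 1205Lu-R with corin they had 0 and 1 counts. INA had 1 count over all 8 libraries. NEFL rose in both lines, in 1205Lu-R from 38.9 and 40.8 CPM with DMSO to 298 and 307 CPM with corin. Whether a match bears on the response was not tested.

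**Figure D4:**
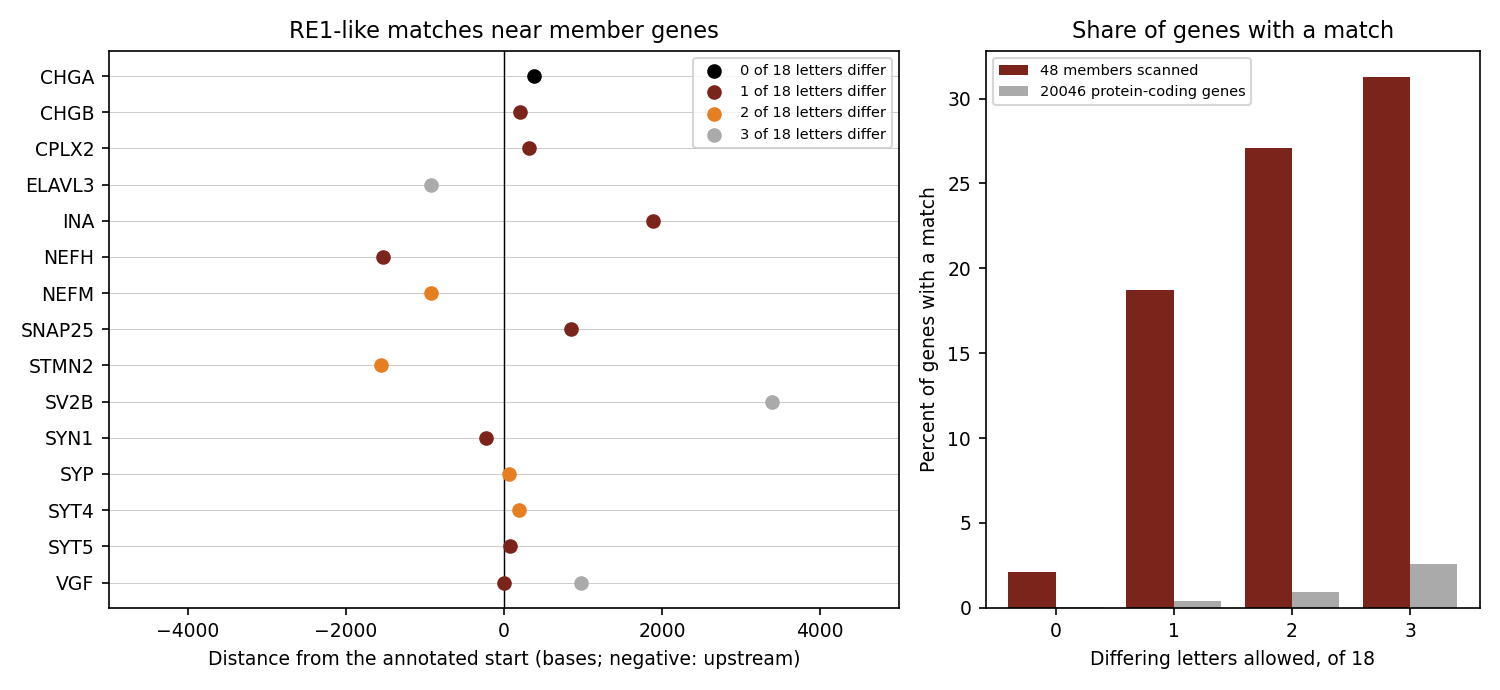
Left, distance in bases of each RE1-like match from the annotated start of its gene (rows; negative, upstream), coloured by how many of the 18 letters differ; right, percent of the 48 genes (dark) and of 20046 protein-coding genes (grey) with a match when 0 to 3 letters may differ. At 3 letters the bars stand at 31.2% and 2.56%.

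The other genes of this biology, from fixed lists, give the surroundings. Among 51 further exocytosis and vesicle cycle genes, 36 were tested in 451Lu-R, of which 31 rose, 17 at least 4-fold, and 2 fell, with a median log2 fold change of 1.75. In 1205Lu-R 33 were tested, 24 rose, 12 of them at least 4-fold, and 2 fell, with a median of 1.47. SH3GL2, endophilin A1, which works with amphiphysin in vesicle retrieval, had 0 and 0 counts with DMSO against 383 and 346 after corin in 451Lu-R, at least 229-fold higher (edgeR adjusted p = 4.84e-16). In 1205Lu-R it had 5 and 0 counts against 338 and 446, a log2 change of 7.22 ± 0.27 (edgeR adjusted p = 2.02e-16). Some transporters that load vesicles with transmitter were also higher. SLC18A3, for acetylcholine, was at least 31.1-fold higher in 451Lu-R (edgeR adjusted p = 7.71e-09) and had 0 counts in 1205Lu-R. SLC17A7, for glutamate, was at least 30.8-fold higher in 1205Lu-R (edgeR adjusted p = 4.52e-09). Over the 451Lu-R libraries SLC17A7 went from 27 counts with DMSO to 531 with corin. SLC17A6, SLC17A8 and SLC18A2 stayed at 4 counts or fewer in each group.

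Of the 25 pan-neuronal markers, 18 of 19 tested rose and none fell in 451Lu-R (median log2 fold change 3.06), and 13 of 15 rose and 2 fell in 1205Lu-R (median 2.67). MAP2, a microtubule protein of dendrites, had 103 and 86 counts with DMSO against 2146 and 1828 after corin in 451Lu-R, and 5 and 2 against 894 and 1002 in 1205Lu-R. Its log2 fold changes were 4.41 ± 0.06 (edgeR adjusted p = 1.14e-21) and 8.03 ± 0.16 (edgeR adjusted p = 3.05e-21). NOVA2, a neuronal splicing factor, was at least 253-fold higher in 451Lu-R (edgeR adjusted p = 1.71e-16). Of neuronal transcription factors, 5 of 8 tested in 451Lu-R rose, as did 8 of 10 tested in 1205Lu-R. The shares that rose over all genes tested were 41.3% and 40.4%. In each line 1 factor fell, EBF3 in 451Lu-R and EBF1 in 1205Lu-R. EBF3 dropped from 327 to 77 counts per group in 451Lu-R (-2.07 ± 0.16, edgeR adjusted p = 3.51e-10). The 1205Lu-R groups held 0 and 37 counts of EBF3, so it was at least 13.0-fold higher with corin there (edgeR adjusted p = 1.7e-06). The zinc finger factor INSM1 had 2 counts with DMSO and 70 with corin over the 451Lu-R libraries, a ratio of 33.0 (95% counting interval 8.81 to 278, edgeR adjusted p = 2.6e-07). In 1205Lu-R it was at least 14.4-fold higher (edgeR adjusted p = 3.97e-06).

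The widely expressed relatives of the synaptic genes, such as SNAP23, VAMP3 and ELAVL1, did not show this shift. Of 22 tested in 451Lu-R, 8 rose and 13 fell, with a median of -0.30, and of 21 tested in 1205Lu-R, 8 rose and 12 fell, with a median of -0.46. Over all genes tested, 41.3% and 40.4% rose and 38.6% and 37.8% fell. SYNGR2, synaptogyrin-2, a vesicle protein found in most tissues, was an exception with 2.25 ± 0.05 in 451Lu-R (edgeR adjusted p = 3.5e-18) and 2.19 ± 0.05 in 1205Lu-R (edgeR adjusted p = 4.06e-20). STX4, the syntaxin of most non-neuronal cells, fell by 1.93 in 1205Lu-R (edgeR adjusted p = 1.21e-10).

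**Figure D5:**
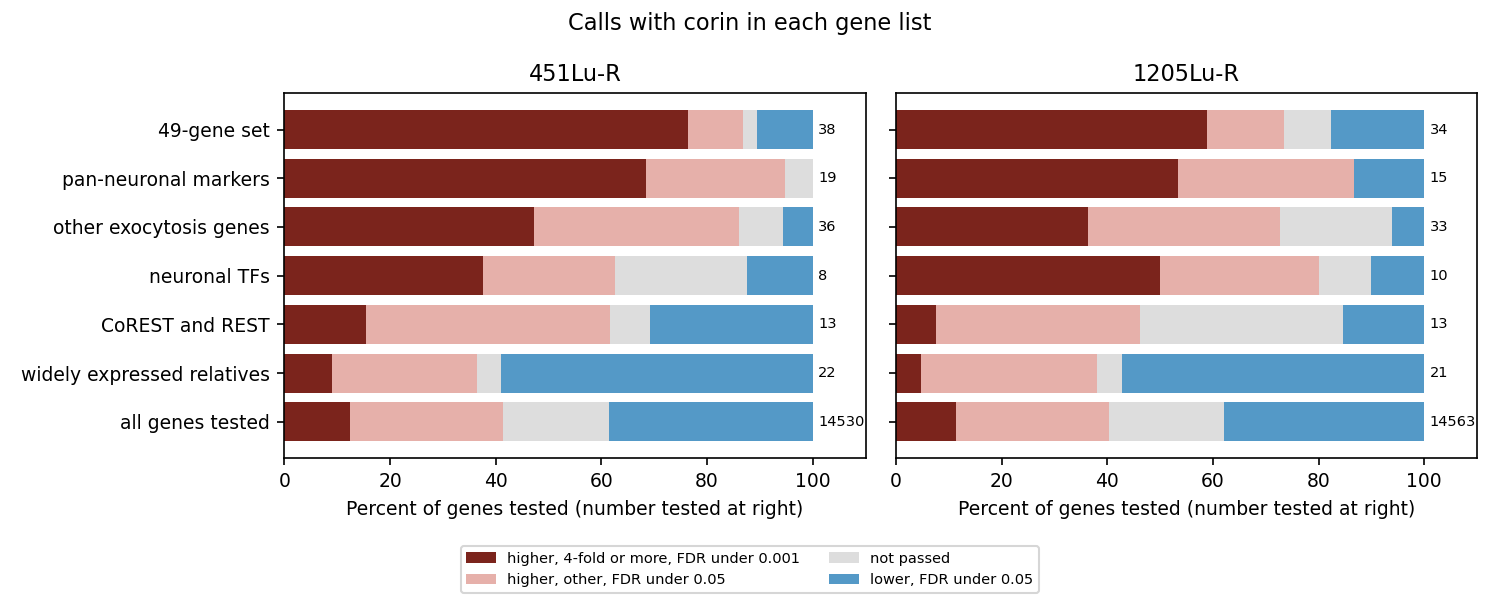
Percent of the tested genes of each list (rows, number tested at the right of each bar) that rose at least 4-fold with adjusted p under 0.001 (dark red), rose otherwise (light red), did not pass (grey) or fell (blue) with corin. In both lines the dark red share is 76.3% or 58.8% for the 49-gene set and 12.4% or 11.3% over all genes tested (451Lu-R, then 1205Lu-R).

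The repressor and the complex itself were measured in the same libraries. REST had 353 and 363 counts with DMSO against 253 and 252 after corin in 451Lu-R, and 605 and 578 against 326 and 377 in 1205Lu-R. Its log2 fold change was -0.49 ± 0.09 (edgeR adjusted p = 9.84e-05) and -0.75 ± 0.07 (edgeR adjusted p = 7.76e-10). RCOR2, a CoREST scaffold subunit of embryonic and neural cells, rose from 4 and 3 to 156 and 125 counts in 451Lu-R (5.29 ± 0.28, edgeR adjusted p = 8.78e-13) and from 15 and 12 to 150 and 149 in 1205Lu-R (3.46 ± 0.21, edgeR adjusted p = 1.94e-12). RCOR1, the scaffold of most cells, rose by 0.82 ± 0.06 (edgeR adjusted p = 2.74e-10) and 0.97 ± 0.07 (edgeR adjusted p = 3.78e-11). The melanocyte lineage markers fell with corin in 451Lu-R in 7 of 8 cases, while 3 were tested in 1205Lu-R and rose. Over all genes tested, 38.6% fell in 451Lu-R and 40.4% rose in 1205Lu-R. Of the glial and Schwann markers, 3 of 5 tested in 451Lu-R rose, as did 2 of 3 tested in 1205Lu-R, beside 41.3% and 40.4% of all genes tested. NGFR, which neural crest cells also express, rose in both (log2 fold change 8.44 ± 0.08, edgeR adjusted p = 4.48e-24, and 5.03 ± 0.07, edgeR adjusted p = 7.72e-24). The part of REST or of a shift between cell types in the rise of the 49 genes was not tested.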

How the data were processed

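Paired-end RNA-Seq reads had been trimmed by the authors (Trimmomatic), quantified by Salmon on the GENCODE v32 transcripts and added up per gene; tool versions and the strand setting are not given in the sources used here. For corin and DMSO the authors deposited estimated counts per gene without normalization, in 8 libraries, 2 per group. The deposited tables for PLX4032 hold only the authors' own fold changes and p-values and were not used.

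Gene IDs were named by GENCODE 44 (34052 of 34228 matched; coordinates are GRCh38), and the 49 genes were found by symbol. The genes, lists and tests were chosen with earlier results of these data known. Estimated counts were rounded and tested with edgeR 4.0.16 in R 4.3.3 (filterByExpr, TMM, glmQLFit and glmQLFTest, 2-sided, Benjamini-Hochberg over all genes tested): corin against DMSO in each line, the interaction over 8 libraries, and the lines with DMSO. TMM factors ran from 0.962 to 1.05. The approximate SE is the log2 fold change divided by the square root of F. CPM is the estimated count scaled to a common library total, the usual CPM unit. A group without counts was set to a floor of 3 counts over the group for a lower bound; with 1 to 3 counts a ratio with its exact 95% counting interval is given, which covers counting error only. The methods were tested on simulated data.

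Any of the 49 genes could be named. Values in full were given by rule for genes that rose at least 4-fold with FDR under 0.001 in both lines and, in each line, for the 5 of highest level with corin and the 3 with the largest rise, and of other lists for at most 3 genes per line with the largest change; the other values shown follow the roles. Alternatives were another tool (DESeq2 1.42.0), other scaling (RLE or library size alone), other filters (none, or a mean CPM of at least 1), a replicate block, 1 fit over all 8 libraries, another call (2-fold, FDR under 0.01), and dropping each library in turn.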

Additional observations from a re-analysis of the deposited data

Results flagged for a closer look

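The change with corin differed between the lines, by the interaction term of edgeR's quasi-likelihood test over the 8 libraries (Benjamini-Hochberg over all genes tested), for 19 of the 41 genes tested. Values are log2, 1205Lu-R minus 451Lu-R.

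Lower in 1205Lu-R were the vesicle genes SYN1 (-3.90) and AMPH (-3.75), the granins SCG2 (-4.15) and CHGB (-2.46), and ELAVL2 (-2.91), which rose in both lines. STX1A (-2.06) and UNC13A (-10.02) moved in opposite directions, upward in 451Lu-R. UNC13A, NEFL (-6.16) and SNAP25 (-4.33) had 0, 0 and 3 counts over the 451Lu-R DMSO libraries, so the size of their difference is uncertain. STMN3 (-0.47), VAMP2 (-0.47), RIMS2 (-0.44) and L1CAM (-0.25) changed by less than 2-fold in each line. The largest of these changes were -0.66 for VAMP2 and -0.56 for STMN3 in 1205Lu-R, and 0.55 for RIMS2 in 451Lu-R.

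Higher in 1205Lu-R were RAB3C (7.75, with no DMSO counts in 1205Lu-R, so of uncertain size), RAB3A (1.82), VGF (1.34), NLGN1 (0.97, which fell in 451Lu-R), SYP (0.68) and SYT11 (0.24, edgeR adjusted p = 0.0495).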

How the results depend on the processing

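The counts of genes that rose, and of genes past the stricter threshold, stayed within 1.5 times the reported value in every alternative run. The 4 genes that fell in 451Lu-R became 2 with DESeq2, and from 2 to 4 when 1 library was left out (2 without the first corin library), as the small falls of VAMP2 and STMN3 lost their call. L1CAM in 451Lu-R changed direction (log2 fold change of corin over DMSO -0.0756) when scaled by library size only, a scaling that moved the median of all genes in that comparison from 0.03 to -0.07. It moved the median from -0.01 to -0.12 in the comparison of lines with DMSO. Over single genes, 1587 results kept direction and side of the threshold, 36 lost a call, 5 gained one and 1 reversed; in the interaction, RIMS2, SYT11, SYP, VAMP2 and L1CAM lost theirs under at least 1 alternative, VAMP2 also when left with 1 corin library in 1205Lu-R, while NEFH and SYT4 gained one with DESeq2 and SYT5 without the first 451Lu-R DMSO library (edgeR adjusted p = 0.00498). A group left with 1 library is assumed to vary like the others. Replicate numbers did not pair the libraries (r of deviations -0.0056 for 451Lu-R, -0.0175 for 1205Lu-R). Under a replicate block the genes higher with corin numbered 33 and the lower ones 3 in 451Lu-R, against 25 and 6 for 1205Lu-R, and the interaction had 5 higher and 12 lower. At the depth of these libraries 3 counts correspond to 0.254 to 0.315 CPM, and below that a gene cannot be told from absent.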
